A study of Mus musculus with 12 samples.

Results

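Enteroendocrine cells are scattered hormone-secreting cells of the gut epithelium, and the 10 genes described here encode their best known products: Ghrl (ghrelin), Gip (glucose-dependent insulinotropic polypeptide), Cck (cholecystokinin), Sct (secretin), Sst (somatostatin), Gcg (proglucagon), Pyy (peptide YY), Nts (neurotensin), Tac1 (the precursor of substance P) and Tph1 (the enzyme that starts serotonin synthesis). They were taken by name from the 19012 gene symbols of the deposited tables, and all 10 were found, each with a single transcript. Their transcripts were followed over 3 origins along the mouse small intestine, duodenum, jejunum and ileum, and over 3 tissues: freshly isolated crypts, freshly isolated villi, and organoids, which are epithelial cultures grown from crypts and were taken here after 12 weeks. Each origin had 2 crypt libraries, 1 organoid library and 1 villus library of poly(A) RNA, 12 in all, so organoids and villi have no replicates within an origin. The sources used here do not state the strain, sex or age of the mice, nor that the crypt replicates came from separate animals, so p-values measure only the spread between these samples. The study asks whether cells taken from a given stretch of the intestine keep the functions of that place, and hormone genes are among those functions.

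Each enteroendocrine cell makes 1 or a few hormones, and the mix changes with its position. Ghrelin, GIP, cholecystokinin and secretin are classically placed in the proximal gut, proglucagon, peptide YY and neurotensin towards the distal end, while somatostatin, substance P and serotonin are made along the whole length. The cells arise from stem cells of the crypt through a precursor that expresses the transcription factor Neurog3, move up onto the villus as they mature, and can change the hormones they make on the way. Peptide hormones are cut from precursors by convertases and stored in granules with chromogranins.

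Levels are in RPKM, the read number of a gene divided by its exon length and by the reads of its library, so levels of different genes can be set side by side. In the build mm9, Ghrl lies on chromosome 6 (113666112 to 113669873, reverse strand), Gip on chromosome 11 (95885858 to 95892141, forward), Cck on chromosome 9 (121398942 to 121404779, reverse), Sct on chromosome 7 (148464236 to 148465029, reverse) and Sst on chromosome 16 (23889666 to 23890929, reverse). Gcg lies on chromosome 2 (62312586 to 62321709, reverse), Pyy on chromosome 11 (101967990 to 101969089, reverse), Nts on chromosome 10 (101944389 to 101953051, reverse), Tac1 on chromosome 6 (7505070 to 7512972, forward) and Tph1 on chromosome 7 (53902545 to 53927906, reverse). The intervals are whole transcripts with their exons and introns, and the sources used here do not say whether positions start from 0 or 1. The exons counted add up to between 498 bases for Pyy and 2027 for Tph1. Ghrl is overlapped on the opposite strand by Gm26982 and Gm44033 in the GENCODE M21 annotation, and since the use of strand in counting is not stated, reads from these genes cannot be told apart.

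The 250 bases before the transcription start are printed for 4 of the genes, from the RefSeq promoter table of the build GRCm38.p6, in which all 10 genes were found. Gip and Nts are shown because they passed the test along the intestine in opposite directions, Cck because its direction in organoids differed from that in crypts and villi, and Gcg as the most abundant distal hormone gene in organoids. The windows are chr11:96024295-96024544 on the forward strand for Gip, and chr9:121495695-121495944 for Cck, chr10:102490419-102490668 for Nts and chr2:62483654-62483903 for Gcg on the reverse strand. Each is written 5′ to 3′ as the gene is read. Capitals mark AGATAA, the core letters bound by GATA factors, in Gip, Cck and Nts, CAGATG, an E-box read by basic helix-loop-helix factors, in Cck and Gcg, and TATAAA or its reverse complement TTTATA, the TATA box letters, in Gcg.
Gip: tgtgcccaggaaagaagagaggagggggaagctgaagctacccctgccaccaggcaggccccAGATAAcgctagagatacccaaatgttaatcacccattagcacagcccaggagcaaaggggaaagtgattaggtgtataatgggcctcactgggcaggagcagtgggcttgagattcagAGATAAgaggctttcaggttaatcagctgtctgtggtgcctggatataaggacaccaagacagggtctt
Cck: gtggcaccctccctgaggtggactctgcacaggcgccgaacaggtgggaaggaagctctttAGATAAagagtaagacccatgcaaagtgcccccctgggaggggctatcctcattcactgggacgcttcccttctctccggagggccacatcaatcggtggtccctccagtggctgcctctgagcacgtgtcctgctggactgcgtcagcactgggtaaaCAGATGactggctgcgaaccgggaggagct
Nts: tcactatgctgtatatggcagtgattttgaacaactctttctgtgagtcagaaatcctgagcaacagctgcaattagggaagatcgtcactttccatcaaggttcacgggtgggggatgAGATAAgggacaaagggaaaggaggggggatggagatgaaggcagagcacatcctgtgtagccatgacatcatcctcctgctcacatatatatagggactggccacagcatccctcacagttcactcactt
Gcg: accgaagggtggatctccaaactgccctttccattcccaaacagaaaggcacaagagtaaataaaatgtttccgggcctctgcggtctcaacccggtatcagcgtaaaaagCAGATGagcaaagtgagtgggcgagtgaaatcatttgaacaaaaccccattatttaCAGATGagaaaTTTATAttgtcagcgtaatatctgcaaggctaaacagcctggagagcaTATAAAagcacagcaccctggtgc

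Counted back from the start, AGATAA began at -188 and -69 in Gip, at -189 in Cck and at -131 in Nts. The same letters began at -32 in Tac1, and no other gene of the 10 held them at any start the table lists. Both strands were searched, and AGATAA or TTATCT was found in 9.99% of all 32851 promoters of this length. CAGATG began at -30 in Cck, at -139 and -83 in Gcg, at -242 in Sct and at -173 in Tac1, and it or CATCTG was found in 14.4% of all promoters. TATAAA began at -24 in Gcg and at -28 in Sct, with its reverse complement at -72 in Gcg, against 12.4% of all promoters. The cAMP response element TGACGTCA, long known in the somatostatin gene, began at -48 in Sst, and 1.55% of all promoters held it. TAATTA, a core of homeodomain sites, began at -100 in Tac1 and at -234 from 1 of the starts of Tph1, against 4.84% of all promoters. Thus AGATAA was found in a gene highest in duodenum and in a gene highest in ileum alike. A match is only a match of letters, and the matches in the printed windows do not overlap one another.

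The libraries held between 5268480 and 18591819 reads, of which 44.3% to 75.8% fell in annotated genes, and 1 read in an exon length of 500 bases was worth 0.108 to 0.380 RPKM. Crypt replicate 2 held much more enterocyte RNA than crypt replicate 1: the summed RPKM of 18 enterocyte markers was 990 and 11480.3 in duodenum, 2248 and 28180.1 in jejunum and 1011 and 12608.6 in ileum. In villi the same sum was 52486 to 107592, while 11 Paneth cell markers summed to 287 to 2560 RPKM there and to 7046 or more in each crypt and organoid library, as the tissue labels have it. Crypt replicate 2 also held less Paneth cell marker RNA than replicate 1. The sums were 38195 and 7046 RPKM in duodenum for replicates 1 and 2, 51399 and 29724 in jejunum and 143276 and 50597 in ileum. Stem cell markers summed to 509 and 496 RPKM in duodenum, 1261 and 136 in jejunum and 1165 and 132 in ileum. Lymphocyte markers summed to 91.7 to 418 RPKM in villi and to at most 8.60 elsewhere, and smooth muscle and stroma markers to 31.5 to 95.6 and to at most 12.6. These are bulk samples, and fewer cells of a type and less RNA per cell cannot be told apart.

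Along the intestine Ghrl and Gip fell and Pyy and Nts rose from duodenum to ileum over the 3 tissues. For the other 6 genes the difference between ileum and duodenum did not pass the test, although Cck was lower in ileum in both crypt series and in villi, and Sct was higher in ileum in every series. The test fits log2(RPKM + 1) of all 12 libraries with limma, with tissue and origin as terms, and adjusts p by Benjamini-Hochberg over all genes tested. In this fit the 3 tissues stand as replicates of an origin, and the 3 origins as replicates of a tissue. Its spread thus mixes crypt replicate spread with departures of single tissues from a common origin difference. Spread between replicate organoid or villus libraries is not measured. A call is an adjusted p under 0.05, and fold changes on this scale understate the change of low genes. Of the 10 genes 4 were called, 2 higher and 2 lower in ileum, while over all 11825 genes 72 were called, or 0.609% (0.414% higher and 0.195% lower). The median of the 10 log2 differences was -0.41 and that of all genes 0.06. Among markers of other cells, 3 of 11 Paneth cell markers were called higher in ileum, 2 of 6 tested stomach markers lower and 0 of 18 enterocyte markers; the part of such cells in the hormone differences was not tested.

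**Figure D1:**
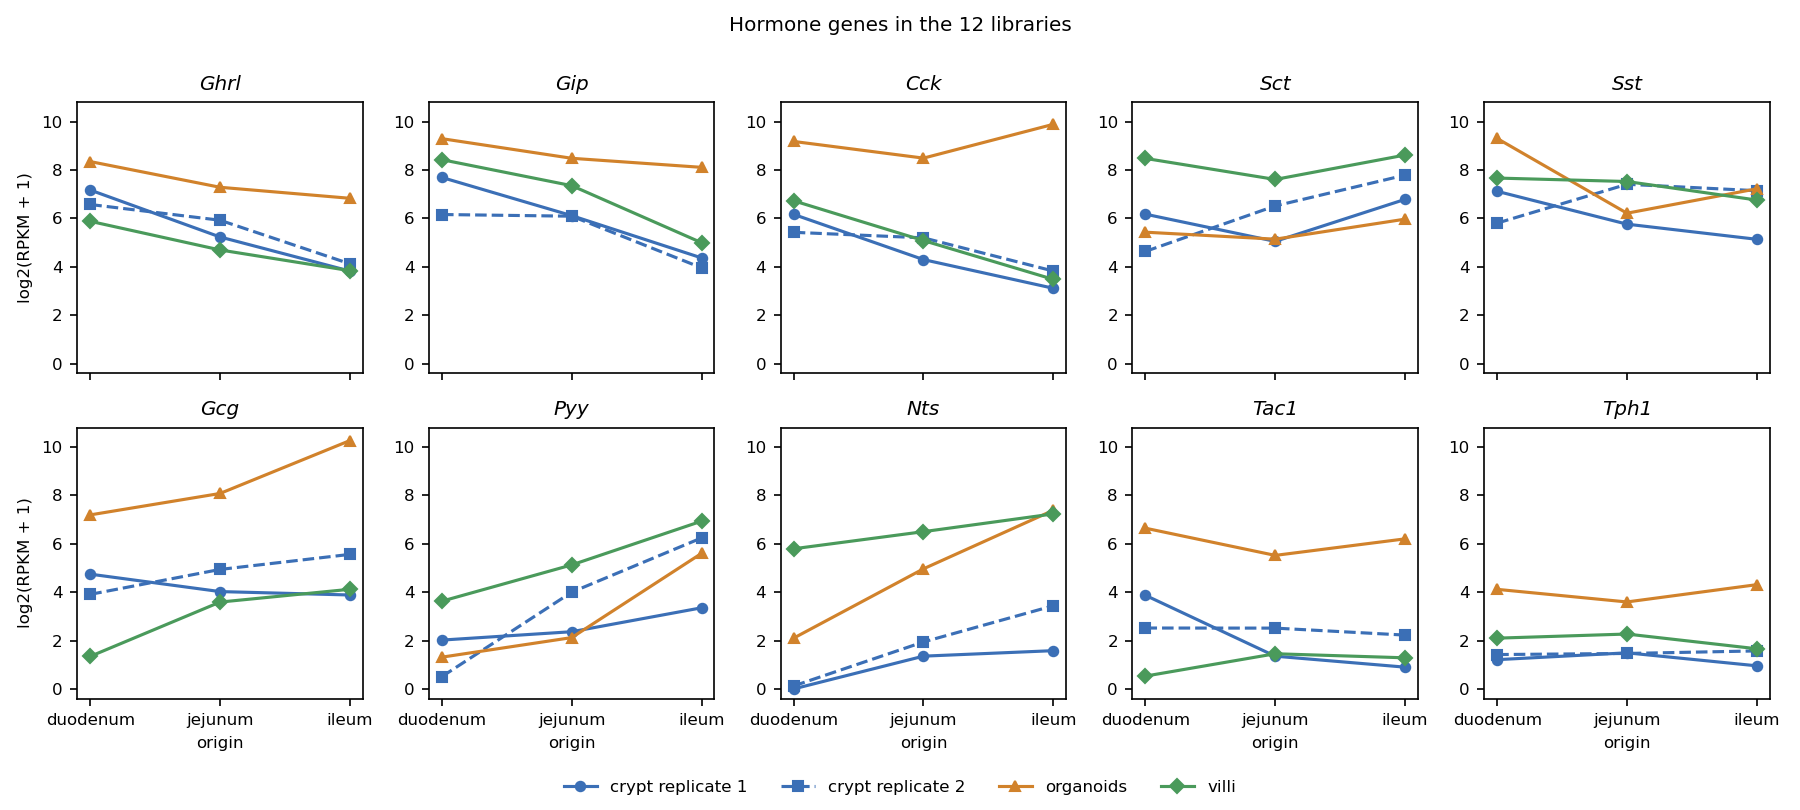
Log2(RPKM + 1) of each of the 10 hormone genes (vertical axis) at the 3 origins (horizontal axis), with a line for each of crypt replicate 1, crypt replicate 2, organoids and villi, and each point a single library. Ghrl and Gip go down and Pyy and Nts go up at both steps in all 4 series, while Cck turns up in ileal organoids and Tph1 stays nearly level within each series.

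Ghrl encodes ghrelin, the hunger hormone, whose main source is the stomach. In crypts it was at 143 and 94.2 RPKM in duodenum, 36.6 and 59.7 in jejunum and 13.2 and 16.4 in ileum. It was 324, 155 and 113 RPKM in organoids and 57.8, 24.9 and 13.3 in villi of duodenum, jejunum and ileum. The order of the origins was the same in all 4 series. Crypt libraries of the 3 origins did not overlap, and for 23% of all genes duodenal and ileal crypts did not. The log2 fold change of ileum against duodenum over all tissues was -2.34 (SE 0.30, limma adjusted p = 0.00356), and Ghrl passed under every alternative and without any single library. In crypts alone it was 119 ± 34.5 RPKM in duodenum and 14.8 ± 2.32 in ileum (SD, n = 2), a log2 fold change of -2.90 (SE 0.44). That difference passed only with the replicate number as a block (limma adjusted p = 0.210 without and 0.0381 with it). Stomach markers were also lower towards the ileum: 12 of them summed to 46.7 and 112.6 RPKM in duodenal and to 8.31 and 2.48 in ileal crypts, with most of it in Gkn3 (deposited as 1190003M12Rik), and to 611, 102 and 74.1 in organoids but to at most 2.19 in villi. Pgc, the pepsinogen of stomach glands, was at 7.54 and 4.06 RPKM in duodenal and 0 and 0.141 in ileal crypts, and was called lower in ileum over all tissues (-2.32, limma adjusted p = 0.00189), as was Gkn3 (-2.74, 0.0417). Tff2, also on this list, was at 0.997 and 23.2 RPKM in duodenal crypts and at 48.0 in duodenal organoids. Atp4a, of acid-secreting cells, did not exceed 0.804 RPKM in any library. The list sum was highest in duodenal organoids, which were grown from crypts, so these values do not show stomach tissue in the samples. The part of cells expressing these markers in the Ghrl difference was not tested.

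Gip encodes the incretin of K cells, which raises insulin release after a meal. Crypts had 205 and 70.4 RPKM in duodenum, 68.2 and 67.1 in jejunum and 19.6 and 14.5 in ileum. Organoids had 626, 357 and 275 RPKM and villi 343, 162 and 30.9, so the level fell at both steps in each series. Duodenal crypt replicate 2 lay close to the jejunal crypts, and only the ileal crypts stood clearly apart. Over all tissues the log2 fold change was -2.53 (SE 0.41, limma adjusted p = 0.0128). The call was lost without the duodenal villi (0.0686) or the ileal villi (0.0687), and with no filter on low genes (0.0881). In ileal organoids Gip was still 275 RPKM, more than in any crypt library.

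Cck encodes the hormone of I cells that contracts the gallbladder and stimulates the pancreas. Its level was 70.7 and 41.9 RPKM in duodenal, 18.6 and 35.6 in jejunal and 7.65 and 13.2 in ileal crypts. Villi had 105, 32.9 and 10.2 RPKM, in the same order. Organoids had 578, 358 and 945, with the highest value in ileum. Over all tissues the log2 fold change of -1.80 (SE 0.52) did not pass (limma adjusted p = 0.181), and without the ileal organoid library it was -2.56 and passed (0.00771). The ileum-duodenum difference was -3.05 and -1.60 on the log2 scale in the crypt series, -3.25 in villi and 0.71 in organoids. The difference of organoids from crypts in this respect was 3.03 (SE 0.90, limma adjusted p = 1).

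Sct encodes secretin, the hormone of S cells that drives bicarbonate secretion. Crypts had 71.1 and 23.9 RPKM in duodenum, 32.1 and 90.4 in jejunum and 109 and 219.8 in ileum. Villi had 355, 194 and 391 RPKM and organoids 42.1, 34.3 and 61.5. The ileum was the highest origin in each series, although secretin is classically a proximal hormone, and by between 0.14 (villi) and 3.15 (crypt replicate 2) on the log2 scale. The fitted log2 fold change of 1.11 (SE 0.45) did not pass (limma adjusted p = 0.465).

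Sst encodes somatostatin of D cells, which inhibits the release of other gut hormones. Its crypt values were 138 and 54.9 RPKM in duodenum, 53.2 and 169 in jejunum and 34.2 and 140.4 in ileum, so the replicates of an origin differed by more than the origins did. Duodenal organoids had 629 RPKM, against 73.2 and 148 in jejunum and ileum, and villi had 202, 183 and 107. The log2 fold change of ileum against duodenum was -0.91 (SE 0.60, limma adjusted p = 0.862). Ileum was lower than duodenum in 3 of 4 series, crypt replicate 2 being the exception.

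Gcg encodes proglucagon, which L cells cut into the glucagon-like peptides. The crypt levels were 25.7 and 14.0 RPKM in duodenum, 15.2 and 29.6 in jejunum and 13.7 and 46.1 in ileum, and the origins overlapped. Organoids had 145, 269 and 1224 RPKM, the last being the highest level of any of the 10 genes in any library. Villi had 1.54, 11.0 and 16.3. Ileum was higher in organoids, villi and crypt replicate 2, by 3.07, 2.77 and 1.65 on the log2 scale, and lower in crypt replicate 1, at -0.86. Over all tissues the log2 fold change of 1.66 (SE 0.52) did not pass (limma adjusted p = 0.244). It passed without ileal crypt replicate 1 (0.0418) and with crypts of replicate 2 alone (0.00345), the latter a choice made after seeing the data. Pancreatic alpha cells also express Gcg. The list of pancreas markers holds genes of beta and exocrine cells: the insulin gene Ins2 was at 0 in all libraries and Ins1 at 0 in all but jejunal villi (0.0767 RPKM), while Ctrb1, a chymotrypsinogen, had 18.0, 23.0 and 7.04 RPKM in organoids and was higher there than in crypts (3.38, limma adjusted p = 1.54e-05). The 12 pancreas markers summed to 139 to 896 RPKM in crypts, 880.3 to 1574 in organoids and 52.0 to 58.1 in villi, nearly all of it Clps, which is also on the Paneth cell list. The part of pancreas-type cells in the Gcg levels was not tested.

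Pyy encodes peptide YY, a satiety hormone made by the same L cells. Crypts had 3.05 and 0.426 RPKM in duodenum (8 and 2 reads), 4.14 and 14.97 in jejunum and 9.20 and 74.5 in ileum. Organoids had 1.48, 3.35 and 47.5 RPKM and villi 11.3, 33.9 and 121. Every series rose at both steps, and ileal exceeded duodenal crypts in both replicates, but the ileal replicates lay far apart (41.8 ± 46.1 RPKM, SD, n = 2). The log2 fold change over all tissues was 3.66 (SE 0.58, limma adjusted p = 0.0128), the largest of the 10 in size. It was lost without duodenal crypt replicate 2 (0.0581), without the duodenal villi (0.0578) and with no filter on low genes (0.0984).

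Nts encodes neurotensin of N cells, which slows gut motility and promotes fat absorption. In duodenal crypts it had 0 reads and 1 read, where 0 reads allow up to 0.483 RPKM by counting error, in jejunal crypts 1.55 and 2.84 RPKM and in ileal crypts 1.99 and 9.81. Organoids had 3.29, 30.2 and 166 RPKM and villi 54.4, 89.4 and 149. Ileal levels were 50.4 times the duodenal level in organoids and 2.75 times in villi, while in crypts the 0 and 1 duodenal reads leave the ratio undetermined. Neither tissue passed the test of a different ileum-duodenum difference from crypts (adjusted p = 1 for both, limma). Over all tissues the log2 fold change was 2.90 (SE 0.52, limma adjusted p = 0.0229). The call was lost without duodenal crypt replicate 2 (0.0701), ileal crypt replicate 2 (0.0664), the duodenal organoids (0.0617) or the jejunal organoids (0.0598), and with no filter on low genes (0.143).

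Tac1 and Tph1 belong to enterochromaffin cells, which make serotonin and substance P. Tac1 had 13.6 and 4.72 RPKM in duodenal, 1.55 and 4.70 in jejunal and 0.865 and 3.67 in ileal crypts, 98.8, 44.8 and 72.5 in organoids and 0.443, 1.74 and 1.44 in villi. Tph1 lay between 0.938 and 1.97 RPKM in the 6 crypt libraries, between 11.1 and 18.8 in organoids and between 2.16 and 3.81 in villi. The log2 fold change of ileum against duodenum was -0.74 (SE 0.48, limma adjusted p = 0.858) for Tac1. For Tph1 it was -0.09 (SE 0.25, limma adjusted p = 1), the smallest of the 10, with ileum higher in 2 series and lower in 2. Tac1 is also made by enteric neurons and Tph1 by mast cells. The 13 neuron and glia markers summed to 0.974 to 2.31 RPKM in crypts, 2.34 to 2.83 in organoids and 2.91 to 3.96 in villi, with 11, 10 and 12 of them above 0, and Nos1 was at 0 in every library. The 10 mast cell markers summed to 1.98 to 6.24, 5.71 to 8.16 and 2.35 to 4.75 RPKM in these tissues, with 5, 4 and 6 above 0. Kit, which is not specific to mast cells, had 0.948 to 5.60 RPKM of this in crypts, 3.63 to 7.37 in organoids and 0.848 to 1.57 in villi. Kit and Hdc, the histamine-forming enzyme, 2 of the 3 mast cell markers tested, were higher in organoids than in crypts by 1.02 (limma adjusted p = 0.0119) and 0.55 (0.00477). The remaining tested marker had a negative log2 difference and was not called. Of the other markers, Cpa3, Fcer1a, Ms4a2 and Tpsab1 were at 0 in every library. The part of mast cells and neurons in the Tph1 and Tac1 levels was not tested.

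Single steps were less well resolved than the whole length. Between duodenum and jejunum 0 of 11825 genes were called (0%, with 343 at an unadjusted limma p under 0.05 and 6 called by limma-voom), Ghrl with -1.21 (SE 0.30) being the hormone gene with the smallest adjusted p, 0.893. Between jejunum and ileum 5 genes were called (0.0423%, with 0.0338% higher and 0.00846% lower in ileum) and 0 of the 10. Gip had the smallest adjusted p there, at -1.65 (SE 0.41, limma adjusted p = 0.379). In crypts alone, 4 of 11123 genes were called between ileum and duodenum (0.036%, with 0.027% higher and 0.00899% lower in ileum) and 0 of the 10, although the duodenal and ileal crypt libraries did not overlap for 7 of the 10, as for 23% of all genes. There Gip had -2.76 (SE 0.56, limma adjusted p = 0.405), and Pyy 3.53 (SE 1.04, 0.866). The comparison rests on 2 libraries against 2 and leaves the replicate number out. With that number as a block 37 genes were called, with Ghrl among them.

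Whether the ileum-duodenum difference depended on the tissue was tested as a difference of differences, in which the single organoid and villus libraries are assumed to vary like the crypts. None of the 10 genes passed for organoids against crypts or for villi against crypts (limma adjusted p = 1 for each). Of 12740 genes 0 passed in either test (0%), with 333 and 463 at an unadjusted p under 0.05, and limma-voom called 0 as well. For Ghrl the ileum-duodenum difference was 1.38 (SE 0.75) less negative in organoids than in crypts, and for Gip 1.58 (SE 1.03). Both genes thus stayed ordered along the intestine after 12 weeks of culture, at 2.88 and 2.28 times more in duodenal than ileal organoids. In the crypt series these ratios were 10.9 and 5.73 for Ghrl and 10.5 and 4.84 for Gip. Pyy was 32.0 times as high in ileal as in duodenal organoids.

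**Figure D2:**
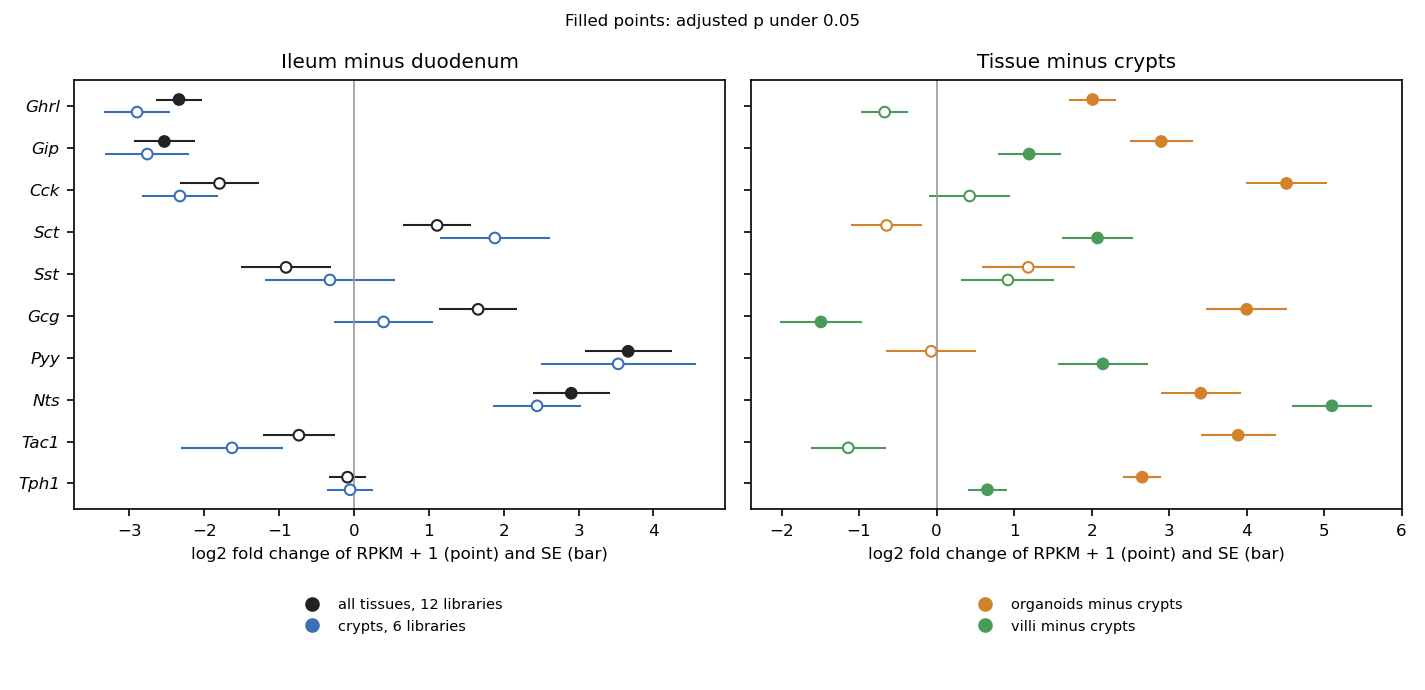
Log2 fold change of RPKM + 1 with its standard error (horizontal axis) for each hormone gene (vertical axis), for ileum minus duodenum in all tissues and in crypts alone on the left, and for organoids and villi minus crypts on the right. Filled points have a limma adjusted p under 0.05: Ghrl, Gip, Pyy and Nts on the left in the 12 libraries and none in the 6 crypt libraries, 7 genes for organoids and 6 for villi.

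Organoids held far more transcript of most of these hormones than fresh crypts. Cck, Gcg, Tac1, Nts, Gip, Tph1 and Ghrl rose, while Sst, Sct and Pyy did not pass the test. Of the 10 genes 7 were called higher and 0 lower, while of all genes 47.4% were called, 23.3% higher and 24% lower. The median of the 10 log2 differences was 2.78, and that of all genes was near 0 at 0.003. Organoid and crypt libraries did not overlap for 5 of the 10 (Gip, Cck, Gcg, Tac1 and Tph1), as for 38.2% of all genes. Of the markers of other cells, 3 of 6 tested stomach markers (Gkn3, Gif and Tff2), 2 of 3 mast cell (Kit and Hdc) and 1 of 3 pancreas markers (Ctrb1) were also called higher in organoids. The counts were 2 of 8 for goblet cell (Tff3 and Agr2), 1 of 4 for neuron and glia (Snap25) and 1 of 8 for smooth muscle and stroma markers (Vim). They were 3 of 18 for enterocyte, 1 of 11 for Paneth cell, 1 of 12 for stem cell, 1 of 7 for tuft cell and 0 of 8 for lymphocyte markers. Called lower were 3 enterocyte (Vil1, Lct and Anpep) and 2 stem cell markers (Rnf43 and Axin2). The stomach (Muc6), goblet cell (Creb3l1), tuft cell (Avil) and Paneth cell lists (Sox9) each had 1 called lower. Apart from the stomach, mast cell and pancreas markers, the shares called higher lie near the 23.3% of all genes or below it. The part of these cells in the hormone differences was not tested. In organoids a culture effect common to the 3 libraries cannot be told apart from the tissue.

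Cck had the largest log2 fold change of organoids against crypts, 4.52 (SE 0.52, limma adjusted p = 3.94e-05), its organoid levels of 358 to 945 RPKM lying above the highest crypt level of 70.7. Gcg rose by 4.00 (SE 0.52, limma adjusted p = 8.68e-05) and Tac1 by 3.89 (SE 0.48, 5.92e-05). Enterochromaffin Tph1 rose by 2.65 (SE 0.25), with the smallest adjusted p of the 10, 1.31e-05. Nts rose by 3.41 (SE 0.52, limma adjusted p = 0.000237), Gip by 2.90 (SE 0.41, 0.000138) and Ghrl by 2.01 (SE 0.30, 0.000232). The 7 calls held without any single library and under every other setting tried. Sst, at 1.18 (SE 0.60, limma adjusted p = 0.122), was highest in the duodenal organoids. It passed without jejunal crypt replicate 2 (0.0469) or the jejunal organoids (0.0343) and with crypts of replicate 1 alone (0.00959). Sct, at 34.3 to 61.5 RPKM in organoids and 23.9 to 219.8 in crypts, had -0.64 (SE 0.45, limma adjusted p = 0.257). Pyy had -0.07 (SE 0.58, limma adjusted p = 0.930), the organoids lying within the range of the crypts.

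In villi the balance was another one. Nts, Sct, Pyy, Gip and Tph1 rose against crypts and Gcg fell, and Ghrl, Cck, Sst and Tac1 did not pass. Of the 10 genes 5 were called higher and 1 lower, while of all genes 52.8% were called, 20.3% higher and 32.5% lower. The median over all genes was -0.19 on the log2 scale, and rescaling the libraries to a common median moved it to -0.07. The split of all calls then changed from 2402 higher and 3845 lower to 3166 and 3436, and the direction of each of the 10 genes stayed. With limma-voom on recovered reads the median was -0.69, with 1842 genes higher and 5221 lower, and that of organoids -0.26, with 2170 and 3790. Villi and crypts did not overlap for Nts and Tph1, 2 of the 10, as for 48.2% of all genes.

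Nts rose by 5.10 on the log2 scale (SE 0.52, limma adjusted p = 9.42e-06), from at most 9.81 RPKM in crypts to at least 54.4 in villi. Sct rose by 2.08 (SE 0.45, limma adjusted p = 0.00200) and Pyy by 2.15 (SE 0.58, 0.00770), and these 3 held without any single library. Gip rose by 1.19 (SE 0.41, limma adjusted p = 0.0250), but lost the call without the duodenal villi (0.140) or the jejunal villi (0.110), with limma-voom (0.104) and with crypts of replicate 1 alone (0.0835). Tph1 rose by 0.66 (SE 0.25, limma adjusted p = 0.0384), and 8 of 20 alternatives ended this call. Gcg fell by 1.49 (SE 0.52, limma adjusted p = 0.0292), and 6 of 20 alternatives ended the call, the largest adjusted p being 0.233 without the duodenal villi. Ghrl, with -0.67 (SE 0.30, limma adjusted p = 0.0795), passed with the replicate block (0.0456), with limma-voom (0.00998), without ileal crypt replicate 1 (0.0464) and with crypts of replicate 2 alone (0.0406). Tac1 likewise, with -1.14 (SE 0.48, limma adjusted p = 0.0627), passed with the block (0.0465), with limma-voom (0.0207), without jejunal (0.0438) or ileal (0.0186) crypt replicate 1 and with crypts of replicate 2 alone (0.00793). Cck had 0.43 (SE 0.52, limma adjusted p = 0.512) and Sst 0.92 (SE 0.60, 0.212), which passed with crypts of replicate 1 alone (0.0221). Crypt replicate 2, which held more enterocyte RNA, had more Nts, Pyy and Sct than replicate 1 in jejunum and ileum, but less Pyy (0.426 against 3.05 RPKM) and Sct (23.9 against 71.1) in duodenum; the part of that RNA in these differences was not tested. With crypts of replicate 2 alone Nts, Sct and Pyy still passed (adjusted p of 3.10e-05, 0.00560 and 0.00975).

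The levels of organoids and villi did not overlap for 6 of the 10, as for 70.5% of all genes, so the count is no result about the hormone genes. Organoids were not tested against villi. Ghrl, Cck, Gcg, Tac1 and Tph1 were higher in each organoid than in each villus library and Sct was lower. For Gcg the lowest organoid level was 145 and the highest villus level 16.3 RPKM, and for Tac1 they were 44.8 and 1.74. Sct had at most 61.5 RPKM in organoids and at least 194 in villi.

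Summed over the 10 genes, crypts held 672 and 306 RPKM in duodenum, 233 and 476 in jejunum and 210.5 and 540.3 in ileum. Organoids held 2465, 1336 and 3071 RPKM and villi 1133, 737 and 843. Duodenum had the highest sum in crypt replicate 1 and ileum in replicate 2. Both the sums and the make-up differed between origins, and neither was tested. Gip and Ghrl led in duodenal crypts, with 30.6% for Gip in replicate 1 and 30.8% for Ghrl in replicate 2. Gip led with 29.3% in jejunal crypt replicate 1 and Sst with 35.5% in replicate 2. Sct led in both ileal crypt libraries, with 51.9% and 40.7%. Among organoids Sst led in duodenum with 25.5%, just above Gip with 25.4%, Cck in jejunum with 26.8% and Gcg in ileum with 39.9%. In villi Sct led at every origin, with 31.3%, 26.3% and 46.4%. In ileal villi Pyy made up 14.4%, Nts 17.7% and Gcg 1.94% of the sum. In ileal organoids Pyy made up 1.55%, Nts 5.39% and Gcg 39.9%. Gcg and Pyy, both L-cell hormones, thus differed in the tissue where they were most abundant.

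**Figure D3:**
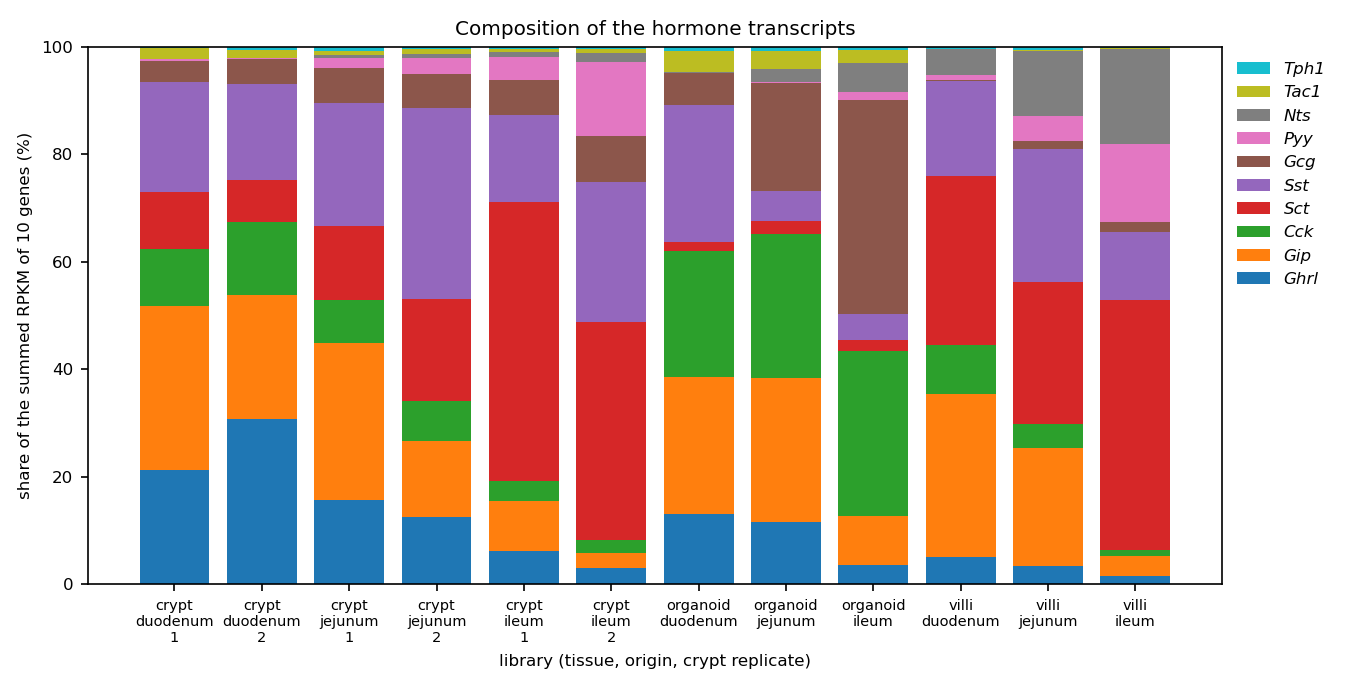
Share of each hormone gene in the summed RPKM of the 10 genes (vertical axis, percent) in each of the 12 libraries (horizontal axis), as stacked bars that add up to 100%. Ghrl and Gip shrink from duodenum to ileum in each tissue, Sct fills 51.9% and 40.7% of the ileal crypt bars and Gcg 39.9% of the ileal organoid bar.

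Of the other listed enteroendocrine genes tested, 0 of 13 granins and vesicle genes, 0 of 13 processing and serotonin enzymes, 0 of 19 enteroendocrine transcription factors, 0 of 10 nutrient sensors, 0 of 4 hormone receptors and 0 of 5 further hormones were called between ileum and duodenum over all tissues. Since 0.609% of all genes were called, counts of 0 in lists of this size say nothing particular about them. Chga, chromogranin A, had 37.7 and 17.1 RPKM in duodenal and 11.5 and 16.9 in ileal crypts. Neurog3, the factor of the endocrine precursor, had 8.63 and 9.51 in duodenal, 4.62 and 3.86 in jejunal and 2.90 and 2.78 RPKM in ileal crypts, and 21.4, 11.1 and 14.4 in organoids. The crypt values of Neurog3 did not overlap between origins, and for 23% of all genes duodenal and ileal crypts did not overlap. In villi Neurog3 went the other way, with 0.198, 0.304 and 0.643 RPKM from duodenum to ileum. With the replicate block 2 of the 19 factors were called lower in ileum, and 1 gene each of the sensors, the enzymes and the further hormones higher. Of all 11825 genes 82 were called lower and 220 higher with the block.

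In villi against crypts the called transcription factors were lower and the called enzymes higher, where 32.5% of all genes were called lower and 20.3% higher. The median log2 differences were -0.42 for the factors, 0.93 for the enzymes, 0.03 for the granins and vesicle genes and 0.25 for the sensors, against -0.19 over all genes. Of 19 transcription factors 0 were higher and 9 lower, led by Neurog3 (-2.10, limma adjusted p = 8.19e-05), which had at most 0.643 RPKM in villi. Nkx2-2, a factor of early endocrine differentiation, followed with -0.82 (0.00128), Foxa1 with -0.79 (0.0123) and Mnx1 with -0.81 (0.0171). Without the duodenal villi 2 of the 19 were called lower, without the jejunal 5 and without the ileal 4. Of all 11825 genes 2748, 2960 and 3251 were then called lower. The counts of factors thus lie near the share of all genes or below it once a villus library is left out. Of 13 enzymes 6 rose and 0 fell: Pcsk1n, an inhibitor of the convertase Pcsk1, by 1.39, Ddc, which completes serotonin synthesis, by 1.91, Pam, which amidates peptide hormones, by 0.93, and Dpp4, which inactivates incretins, by 2.38 (limma adjusted p from 1.85e-05 to 0.00375). Ddc and Dpp4 are also enterocyte genes. Of 13 granins and vesicle genes 4 rose and 2 fell, among them Scg5 with 0.76 (0.00118), Scg2 with 0.98 (0.00452), Resp18 with 1.24 (0.0137) and Cplx2 with -0.94 (0.0168). Of 10 genes on the sensor list 4 rose and 1, Gpr35, fell (-0.85). Those that rose were the short-chain fatty acid receptor Ffar3 (1.83), Gpr133, now Adgrd1 (2.25), and the transporters Slc15a1 (4.33) and Slc5a1 (1.88). Being listed does not show that a gene acts as a nutrient sensor in enteroendocrine cells. Slc5a1 is also on the list of enterocyte markers, and the part of enterocytes in these differences was not tested.

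In organoids against crypts most of the called genes of these lists were higher, where 23.3% of all genes were called higher and 24% lower. The counts of higher transcription factors and sensors lie near that share and are no result about those lists. The median log2 differences were 0.37 for the transcription factors, 0.20 for the granins and vesicle genes, 0.50 for the enzymes and -0.22 for the sensors, against 0.003 over all genes. Of 19 transcription factors 5 rose and 0 fell: Rfxdc1 (Rfx6) by 1.46, St18 by 0.57, Neurog3 by 1.45 and Neurod1 by 1.18 had the smallest p (limma adjusted p from 3.45e-05 to 0.00242), with Lmx1a the other one. Of 13 granins and vesicle genes 6 rose, led by Scg5 (1.89), Scg2 (1.82), Resp18 (2.74) and the calcium-binding secretagogin Scgn (2.34), and Gnao1 alone fell. Chgb, chromogranin B, rose from 7.19 to 24.7 RPKM in crypts to 33.5 to 40.6, while Chga, at 15.1 to 21.5 in organoids and 11.5 to 37.7 in crypts, did not pass. Of 13 enzymes 5 rose and 1 fell: Pcsk1, the convertase that frees the glucagon-like peptides, by 1.61 and Cpe, the carboxypeptidase that trims cut peptides, by 1.78. Slc18a2, a vesicular monoamine transporter, rose by 0.63, and Qpctl fell by 1.01. With limma-voom, or without the ileal organoids, 2 of the 13 were called higher, where 2170 and 1756 of all 11825 genes were. Without ileal crypt replicate 1 or the duodenal or jejunal organoids 3 were called higher, where 2486, 2247 and 2079 of all genes were. With crypts of replicate 1 alone 9 were called higher, where 3771 of all genes were. Of 10 sensors 3 rose, the fatty acid receptor Gpr120 (Ffar4) by 2.32, Gpr119 by 1.22 and Trpa1 by 0.76, and Ffar2 fell by 1.16. With crypts of replicate 2 alone 5 sensors instead of 1 were lower, with the replicate block 4 and with limma-voom 3. Of all 11825 genes 3132, 3317 and 3790 were called lower under these settings.

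**Figure D4:**
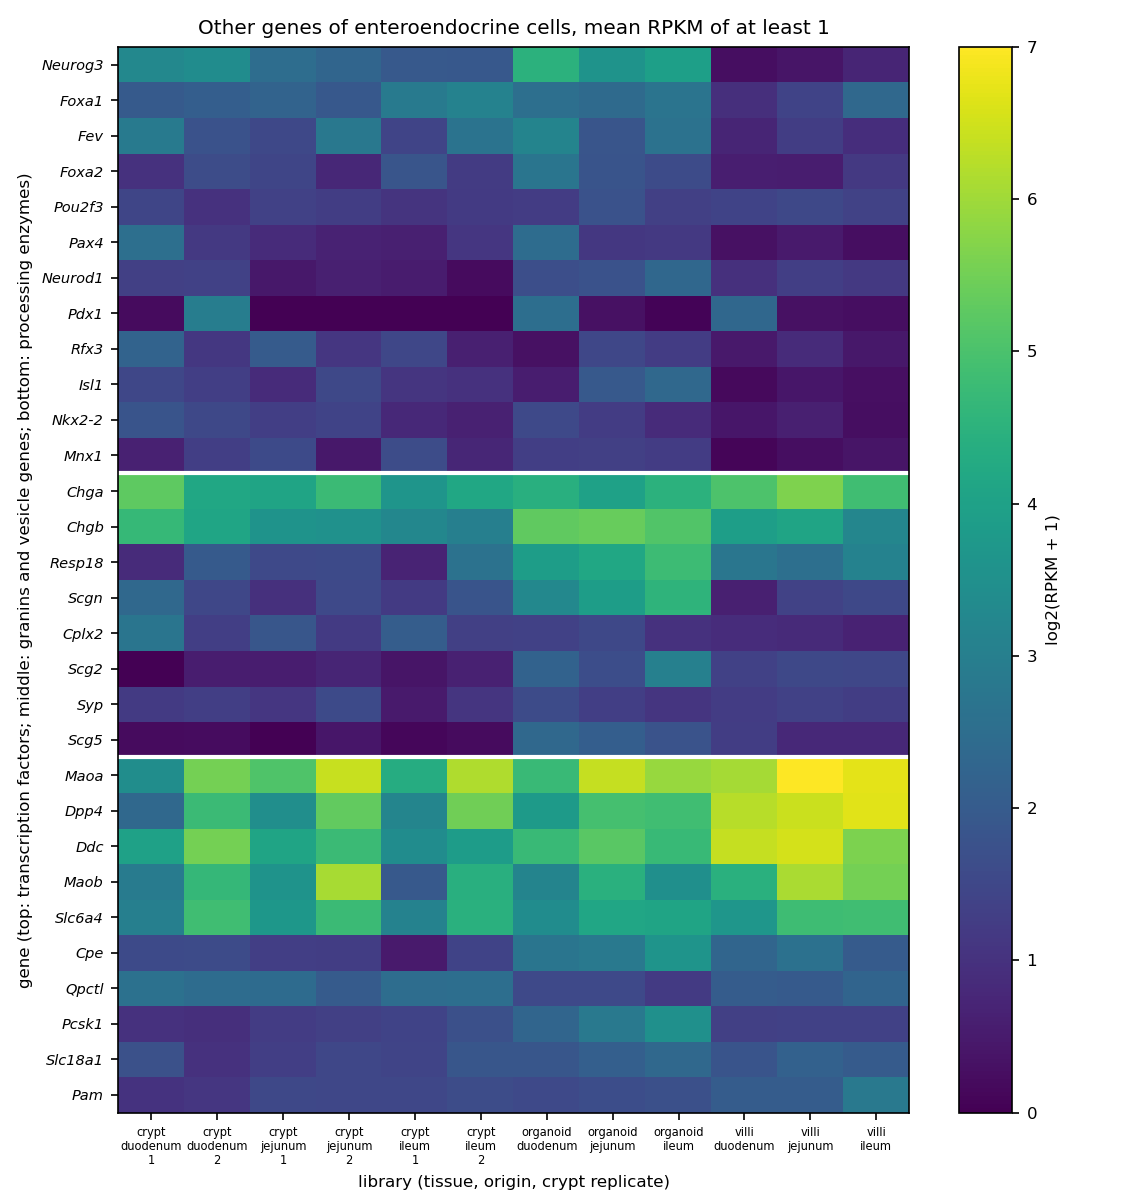
Log2(RPKM + 1) (colour) of 30 other genes of the enteroendocrine lists with a mean of at least 1 RPKM (vertical axis), in each of the 12 libraries (horizontal axis). The blocks are transcription factors, granins and vesicle genes, and processing enzymes. Listed genes are not all particular to enteroendocrine cells: Pou2f3 is also on the tuft cell list, and Ddc and Dpp4 are also enterocyte genes. Neurog3 is darkest in the villi, with at most 0.643 RPKM, and Chgb, Resp18 and Scgn are brightest in the organoids.

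Receptors of these hormones were hardly detected. Of 26 receptor genes 24 stayed under 1 RPKM in all crypt libraries and 25 in all organoid and all villus libraries. Htr4, a serotonin receptor, reached 1.22 RPKM in 1 ileal crypt library. The other exception was Sort1, a neurotensin-binding sorting receptor of wide expression, with 14.97 to 23.4 RPKM in crypts and 7.15 to 9.59 in organoids, where it fell by 1.17 on the log2 scale (limma adjusted p = 0.00264). In villi the somatostatin receptors Sstr5 and Sstr1 rose by 0.58 and 0.42 and Htr4 fell by 0.63, at levels under 1 RPKM apart from that ileal crypt library. Among 14 further gut hormones, 9 stayed under 1 RPKM in all crypt libraries. Iapp, amylin, rose in organoids by 1.29 (limma adjusted p = 0.00860) and in villi by 1.49 (0.00316), Cartpt rose in villi by 1.43 (0.00164) and Nmb fell there by 0.82 (0.0346).

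The genes whose log2(RPKM + 1) followed a hormone gene most closely over the 12 libraries were found by Pearson correlation among 8458 genes that reach 5 RPKM. The points share library, depth and tissue, so the r is a description, without a p, and is set in large part by the levels of the 3 tissues. Chgb was among the 3 closest to Ghrl (r = 0.90), Gip (0.88) and Cck (0.93). The closest of all were 2210023G05Rik (Ces2g) to Ghrl (0.94), Afp to Gip (0.94) and 2410005O16Rik (Rmdn1) to Cck (0.93). Scgn was the closest to Gcg (0.96), Dph4 (Dnajc24) to Tac1 (0.96) and Cyp2j9 to Tph1 (0.98), 3 hormones highest in organoids. Pmp22 was the closest to Sct (0.93), Chmp4c to Nts (0.92) and 2310007B03Rik (Mab21l4) to Pyy (0.87), 3 hormones whose closest genes peaked in ileal villi. Ubl5 was the closest to Sst, at a lower r of 0.82. Among the hormone genes themselves Cck and Tph1 (0.90), Gcg and Tac1 (0.89) and Gip and Cck (0.88) were most alike, and Ghrl and Pyy least (-0.66).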

How the data were processed

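Poly(A) RNA of 12 libraries (2 of crypts, 1 each of organoids and villi per origin) was read as 50-bp SOLiD reads, per the labels' protocols, and aligned with BWA to mm9, per the submitters' processing notes. The sources used here do not state versions, gene models, counting rule or use of strand. The values the authors deposited are RPKM per transcript, per the file headers, and each of 19012 symbols was represented by its transcript of longest exon length. All values of at most 1000 reads (100% in each library) were whole reads within 0.02 of a read, and the recovered reads were used for the filter and for limma-voom.

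Tested were genes with 15 reads in all that reached 10 reads, scaled to median depth, in 2 libraries (crypts), 3 libraries (all 12) or 1 library (differences of differences), which left 11123, 11825 and 12740 genes and all 10 hormone genes. Tests were two-sided, with limma 3.58.1 in R 4.3.3 and a mean-variance trend on log2(RPKM + 1), Benjamini-Hochberg adjustment over all genes tested and a threshold of 0.05, with 3 (crypts), 7 (12 libraries) and 3 (9 means) residual degrees of freedom. The code was tested on simulated data. Alternatives were a pseudocount of 0.1, no filter, median rescaling, limma-voom, summed transcripts, the replicate block, each library left out and, chosen after seeing the data, crypts of 1 replicate alone.

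In the labels the crypt replicates of every origin carry the numbers 1 and 2. Their deviations correlated between origins over 11123 genes (r of 0.42, 0.51 and 0.79), so equal numbers pair the libraries. The main fits leave this pairing out, and the replicate block takes it in. Named are all 10 hormone genes, up to 4 called or 2 abundant genes of each other list, and the 3 genes most correlated with a hormone gene. Some further listed genes are named where the text needs them. Members and lists were chosen with earlier results of these data known. Symbols are as deposited, with the current one in brackets.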

Additional observations from a re-analysis of the deposited data

Results flagged for a closer look

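The ileum-duodenum difference of Cck ran opposite ways in crypts and organoids: it was -3.05 and -1.60 on the log2 scale in the crypt series and 0.71 in organoids. The difference between them was 3.03 (SE 0.90, limma adjusted p = 1), so it did not pass over all genes. Tac1 did so in villi, with -2.97 and -0.29 in the crypt series and 0.76 in villi, where it had 6, 23 and 18 reads. That difference was 2.39 (SE 1.26, limma adjusted p = 1).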

How the results depend on the processing

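The 4 hormone genes called between ileum and duodenum over all tissues became 1 with no filter (16112 genes tested), 5 with crypts of replicate 2 alone and 2 to 5 without a single library. All genes called there, 72, became 113 with a pseudocount of 0.1, 17 with no filter, 131 with limma-voom, 302 with the replicate block and 113 and 153 with crypts of replicate 1 or 2 alone (34 to 94 without a library). In crypts the 4 genes became 1 with a pseudocount of 0.1, 0 with no filter, 0 with limma-voom and 37 with the block (0 to 6 without a library), and the 0 hormone genes became 1 with the block, Ghrl. Jejunum against duodenum went from 0 to 6 with limma-voom, 8 with the block and 1 and 10 with crypts of replicate 1 or 2 alone (0 to 6 without a library). Ileum against jejunum went from 5 to 9 with a pseudocount of 0.1, 0 with no filter, 32 with the block and 2 with crypts of replicate 2 alone (0 to 11). The differences of differences gave 0 genes and, with no filter, 362 and 497, of which 298 and 396 had equal crypt replicates. Organoids against crypts gave 3563 to 6378 genes without a library, and villi against crypts called 3 to 7 hormone genes. The cause of these changes was not tested. The block changed no other call of a hormone gene than those given.

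Reversed values were all of uncalled genes. Between jejunum and duodenum Tph1 was 0.0404 with a pseudocount of 0.1 and 0.0490 with limma-voom, and Sct 0.0669 with limma-voom and 0.24 with crypts of replicate 2 alone. That setting also gave Tac1 0.0074 for ileum against duodenum, and Tac1 0.0755 and Tph1 0.0703 for ileum against jejunum. Crypts of replicate 1 alone gave Tac1 0.0206 there and Pyy 0.43 in organoids. Without a library, crypts gave Gcg -0.44 to 1.23, Sst -1.33 to 0.68 and Tph1 -0.36 to 0.26 for ileum against duodenum, and all tissues Tph1 -0.27 to 0.0593. For ileum against jejunum Sst was -0.75 to 0.29, Tac1 -0.31 to 0.34 and Tph1 -0.30 to 0.0650, and for jejunum against duodenum Sct -0.54 to 0.19 and Tph1 -0.12 to 0.21. Pyy in organoids was -0.51 to 0.39 and Cck in villi -0.0142 to 0.95. The differences of differences were -0.69 to 2.20 for Pyy and -0.0622 to 0.55 for Tph1 in organoids, and -1.43 to 0.10 for Gip, -1.67 to 1.22 for Pyy and -1.59 to 0.42 for Sst in villi. They could not be fitted without a duodenal or ileal library of the tissue, which left 10 of 12. Tac1 in villi, at 6 to 23 reads, and Nts in duodenal crypts, at 0 and 1, are limited by depth.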

Other observations

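Duodenal organoids held transcripts of hormones that were low elsewhere. Gast, the gastrin gene, had 20.1 RPKM there, 1.18 and 1.91 in jejunal and ileal organoids, 3.34 in duodenal crypt replicate 1 and 0 in villi. Ucn3, a urocortin, had 9.64 RPKM and Adm2, a calcitonin-family peptide, 6.45 in the duodenal organoids, and at most 1.42 and 0.878 in the other libraries; these 2 were chosen after their values were seen. The same library had the highest Sst (629 RPKM) and the highest Gkn3 (552 RPKM, deposited as 1190003M12Rik), which is on the list of stomach markers. This is 1 library without a replicate.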
